A study of Homo sapiens with 32 samples.

Results

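Tumors taken on day 2 of tamoxifen were compared with a pool of tumors that had received estradiol (E2) alone. The members are the 4 arrays titled as day 2, which hold 2 tumors from 2 mice, each hybridised against the pool in both dye orientations, out of 32 arrays, 16 tumors and 12 mice in the series. All tumors came from ZR-75-1 cells, an estrogen receptor positive line of human breast cancer, passaged as fragments under the skin of female nu/nu mice, which lack a thymus and with it most T cells. Every mouse carried a slow-release E2 pellet. The treated mice also carried a pellet of 2.5 mg tamoxifen released over 60 days, and the control group had E2 alone. The pool mixed RNA of tumors on E2 alone at days 0, 1, 2 and 4. As a single sample it has no spread that a test against it could use. The age of the mice is not given in the sources used here. The tumors of day 1 (4 tumors from 2 mice), day 4 (4 from 3), day 7 (4 from 3) and day 14 (2 from 2) received both agents. They were measured against the same pool.

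Estradiol binds the estrogen receptor, which then acts as a transcription factor on target genes and drives luminal breast cancer cells through the cell cycle. Tamoxifen occupies the same pocket and, in breast cells, leaves the receptor in a shape that recruits corepressors in place of coactivators. In estrogen-dependent breast cancer the drug is known for holding cells in G1, and for lowering secreted products such as the trefoil factors.

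The values are log2 ratios of a tamoxifen-treated tumor over the control pool, so a negative value is a level below the pool, and 1 mean over both dye orientations was taken per tumor. A named gene is one of 253 genes, with 333 probes, that the study lists in Additional File 1 because they passed its fold and p limits on at least 1 day of these same arrays. Their direction at day 2 is therefore not independent evidence. The other 9579 of 9912 probes carry no gene name in the sources used here. Where a gene has several probes, the brightest stands for it. A probe was called lower or higher where limma gave an adjusted p under 0.05, with Benjamini-Hochberg adjustment over all 9912 probes and the spread shared by all 16 tumors.

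The 4 day 2 arrays were not equally bright. The median signal over local background, in the dimmer channel of each array, was 3.09 on the forward array of tumor 1, 2.29 on its dye swap, 4.04 on the forward array of tumor 2 and 5.55 on its dye swap. The dye-swap array of tumor 1 was the dimmest of all 32, which reached 6.62 on this measure, and its ratios followed the authors' own value table with an r of 0.332, against 0.973, 0.908 and 0.985 for the other day 2 arrays. Over all 9912 probes the orientations of a tumor correlated with an r of 0.05 in tumor 1 and -0.01 in tumor 2, while the forward arrays of the tumors, which share the pool and the dye orientation, correlated with an r of 0.403 and their dye swaps with 0.135. Probes are not independent replicates, so these values only describe the arrays. Nothing in the scanner files says which dye either intensity column holds. The direction used here is that of the authors' value table and is likely, but every sign turns if column 1 is channel 1 of the labels. The study's protein stains of TFF3 and IGFBP5 in xenograft sections ran in the direction used.

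Most genes lay close to the pool at day 2, and more probes passed the test below it than above it. Of 9912 probes, 77 were called (0.777%), 63 of them lower (0.636%) and 14 higher (0.141%), and the median of all probes was 0.01. Among the 333 named probes, 39 were lower and 7 higher, belonging to 31 and 6 genes. The brightest probe was called lower for 29 genes and higher for 6. All 77 called probes had 1 sign in both tumors, and 71 had it on all 4 arrays, against 57.3% and 15.9% of all probes. Under the rule of the study's methods, at least 1.5-fold and an unadjusted p not above 0.05, 160 of all probes were lower (1.61%) and 68 higher (0.686%). A call requires the mean of the tumors to lie far from 0, so these shares are a description.

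The count of 77 rested on both tumors and on the other days. With tumor 2 alone as the day 2 sample 6 probes were called, all lower: both of TFF1 and 1 each of ATP5D, NEK2, UBE2C and 416833_A, a probe with no name. Every other call given here was lost without tumor 1. With tumor 1 alone 327 were called, of which 51 were among the 77. In these fits the lone tumor was assumed to vary like those of the other days. Without the dim dye-swap array of tumor 1 the count was 169, including 64 of the 77. With only the day 2 arrays in the fit 0 probes were called, with 784 at an unadjusted p under 0.05 and a smallest adjusted p of 0.0581.

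**Figure D1:**
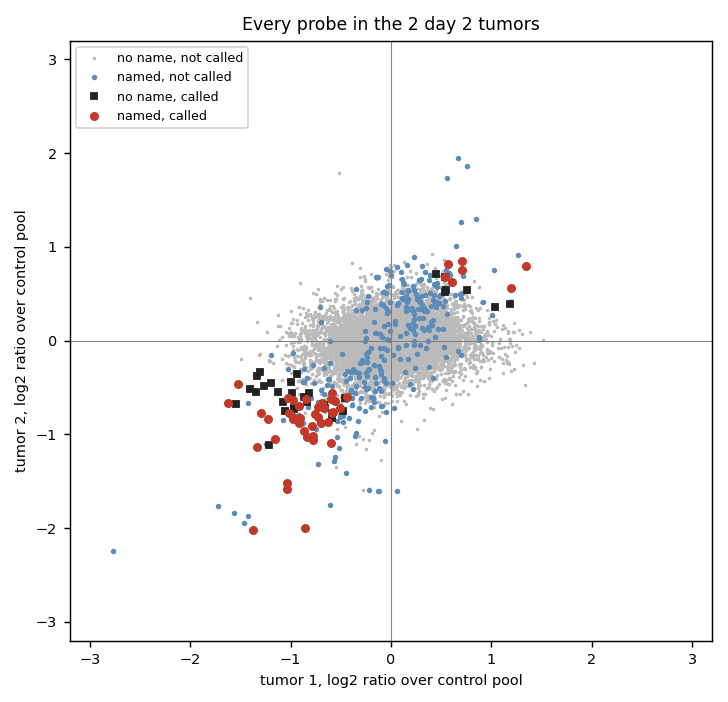
Log2 ratio over the control pool in tumor 1 (horizontal axis) and tumor 2 (vertical axis) for every probe of day 2, in grey for probes without a name and in colour for named and called probes. The 63 probes called lower lie at the lower left and the 14 called higher at the upper right, and the named probe furthest from the cloud, ALB at -2.77 and -2.24, was not called.

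Genes of mitosis made up the largest group of falls among the gene lists. Of the 48 genes on the list of mitosis and the spindle, 18 had a named probe. At day 2, 10 of these 18 were lower, 0 were higher and 8 were not called. Of all probes 0.636% were lower, and of all 253 named genes 11.5% were lower and 2.37% higher. The named genes, chosen on these arrays, are the closer comparison. The median log2 ratio of the 18 was -0.67, against 0.01 over all probes. On all 4 arrays 17 of the 18 were below 0, as were 784 of all 9912 probes. In a whole tumor, fewer dividing cells and less of these transcripts per cell cannot be told apart. Without tumor 1, 1 of the 18 was called lower, and without tumor 2, 6 were.

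NEK2, a kinase that splits the centrosomes at the start of mitosis, had the smallest adjusted p of any named gene. Its log2 ratio was -1.16 in tumor 1 and -1.05 in tumor 2, with -1.48 and -1.42 on the forward arrays and -0.84 and -0.69 on the dye swaps. The tumors lay close together and every array was below 0. The mean was -1.11 ± 0.07 (SD, n = 2 tumors, 2.15-fold lower, adjusted p = 4.10e-05), both NEK2 probes were called, and the call was lost in 1 of 32 other settings, that with only the day 2 arrays.

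DLG7, now named DLGAP5, a protein that stabilises the microtubules of the spindle, stood at -1.22 in tumor 1 and -0.84 in tumor 2. Its arrays ran from -1.25 to -0.59, so that the highest array was still well below the pool. The mean was -1.03 ± 0.27 (SD, n = 2, adjusted p = 0.000988). AURKA, the kinase of centrosome maturation and spindle assembly, had -0.73 and -0.71, a mean of -0.72 ± 0.01 (SD, n = 2, adjusted p = 0.00307).

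The checkpoint and exit genes of mitosis lay in the same range. BUB1B, a kinase of the spindle checkpoint, had -0.91 in tumor 1 and -0.83 in tumor 2 (adjusted p = 0.00646). ZWINT, which links the checkpoint to the kinetochore, had -0.69 and -0.67 (adjusted p = 0.0152). Tumors differed little in either gene. UBE2C, the ubiquitin-conjugating enzyme that works with the anaphase-promoting complex, had -0.58 and -0.77, and all 3 of its probes were called (adjusted p = 0.0299 for the brightest).

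The remaining called members were regulators of entry into mitosis and proteins of chromatin and centrosome. CDC25B, the phosphatase that activates the mitotic cyclin-dependent kinase, had -1.02 in tumor 1 and -0.61 in tumor 2, FOXM1, a transcription factor of late cell cycle genes, had -0.59 and -0.78, HMGB2, a chromatin protein, had -0.85 and -0.62, and SFI1, a centrosome protein, had -0.60 and -0.62. Among members not called, CENPF, a kinetochore protein, had a mean of -0.69 (adjusted p = 0.0526), TACC3, a spindle protein, -0.55 (0.0554) and STMN1, which takes microtubules apart, -0.62 (0.0655). MKI67, the proliferation marker Ki-67, had a mean of -0.60. NUMA1, a spindle pole protein, stood apart from the list at 0.48. The brightest probe of PRC1, which bundles the midzone microtubules, was at -0.46 and not called, while its other probe was called lower at -0.89.

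**Figure D2:**
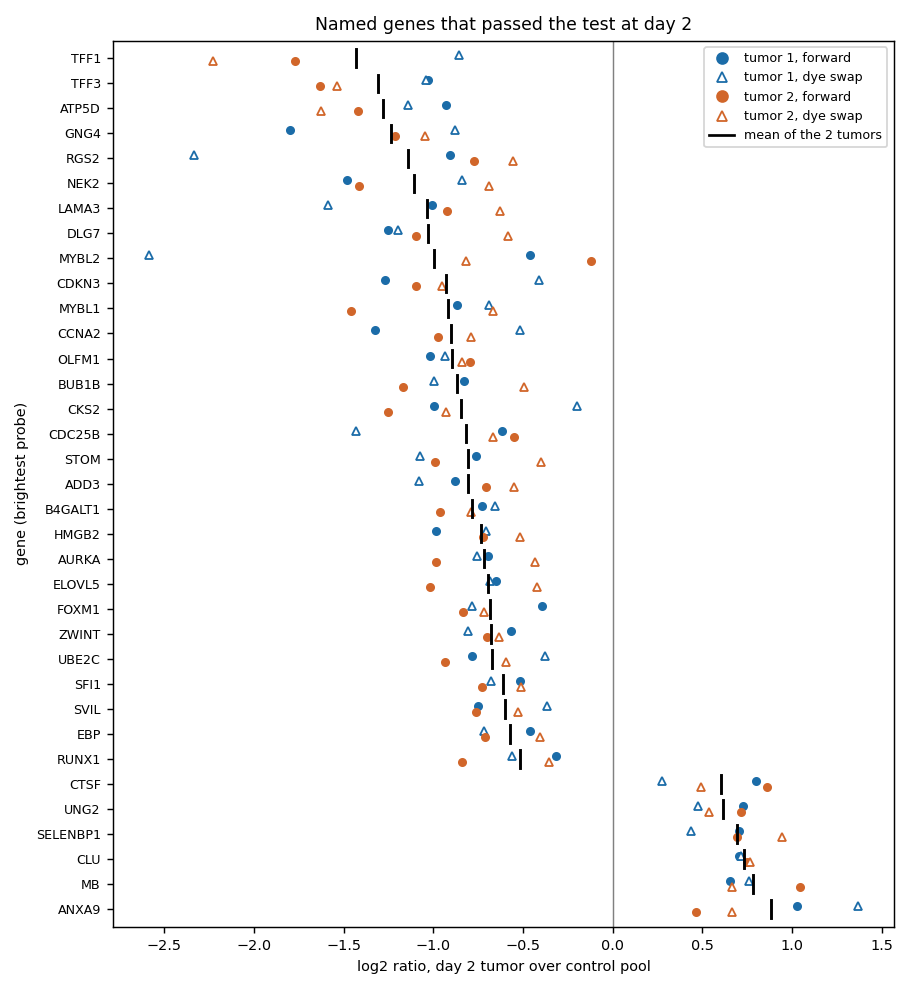
Log2 ratio over the control pool on each of the 4 day 2 arrays (points, horizontal axis) for the 35 named genes whose brightest probe was called, with the mean of the 2 tumors as a black bar. TFF1 has no forward value for tumor 1. All measured arrays of the 29 lower genes lie below 0 and those of the 6 higher genes above it, and single arrays of RGS2 and MYBL2 lie far from the other 3.

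Promoters of the cell cycle genes were read to show what these genes share outside the arrays. Many genes of late cell cycle carry a CCAAT box, bound by the factor NF-Y, and a cell cycle homology region (CHR), bound by the DREAM and MuvB complexes, near their start. The 250 bases before the annotated start in RefSeq (GRCh38.p14) were searched on both strands for CCAAT and for the CHR letters TTTGAA or TTCGAA. The table held promoters for 186 of the 253 named genes. NEK2 lies at chr1:211675622-211675871 and CCNA2 at chr4:121823884-121824133, both on the minus strand, and DLG7 at chr14:55191586-55191835, also on the minus strand, while CKS2 lies at chr9:89310945-89311194 on the plus strand. These 4 are examples of genes that fell with 1 promoter in the table and a CCAAT box, chosen after the motifs were seen. They have every match to either motif in capitals, read 5′ to 3′ and ending 1 base before the start:
NEK2: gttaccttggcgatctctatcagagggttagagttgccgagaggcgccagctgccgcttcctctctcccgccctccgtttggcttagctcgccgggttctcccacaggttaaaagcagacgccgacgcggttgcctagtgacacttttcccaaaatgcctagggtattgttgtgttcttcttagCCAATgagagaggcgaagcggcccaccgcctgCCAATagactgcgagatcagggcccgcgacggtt
DLG7: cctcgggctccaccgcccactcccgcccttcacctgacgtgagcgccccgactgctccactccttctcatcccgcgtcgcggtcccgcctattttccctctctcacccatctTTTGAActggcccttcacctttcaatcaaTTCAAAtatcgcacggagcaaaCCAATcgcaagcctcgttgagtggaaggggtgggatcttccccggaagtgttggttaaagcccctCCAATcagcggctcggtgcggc
CCNA2: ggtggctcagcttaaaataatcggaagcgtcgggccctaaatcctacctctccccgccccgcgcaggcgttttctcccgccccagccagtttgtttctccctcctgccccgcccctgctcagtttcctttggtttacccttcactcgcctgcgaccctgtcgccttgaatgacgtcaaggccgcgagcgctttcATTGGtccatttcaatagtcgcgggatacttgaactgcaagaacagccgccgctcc
CKS2: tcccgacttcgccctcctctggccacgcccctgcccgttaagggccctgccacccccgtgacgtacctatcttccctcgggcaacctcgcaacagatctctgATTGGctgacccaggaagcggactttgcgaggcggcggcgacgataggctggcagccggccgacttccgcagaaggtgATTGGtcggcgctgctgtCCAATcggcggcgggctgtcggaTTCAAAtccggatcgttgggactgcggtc

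NEK2 held 2 CCAAT boxes, whose first bases lie 66 and 34 bases before the start, and DLG7 held 2 CCAAT boxes and 2 CHR matches. CCNA2 had 1 CCAAT box, read as its complement 56 bases before the start, and CKS2 had 3 CCAAT boxes and 1 CHR match 29 bases before the start. Of the other genes on the mitosis or cyclin list that fell and have 1 promoter, BUB1B held a CHR match and no CCAAT box, CDKN3 held both and MYBL2 neither. Of 15 promoters of the 10 genes of the mitosis or cyclin lists that were called lower and are in the table, 7 held a CHR match and 9 a CCAAT box, and 6 held both. Promoters of 1 gene can overlap, as the 2 of ZWINT do. Counted by gene, 6 of the 10 had a CHR match, 7 a CCAAT box and 5 both in 1 promoter. Of 19 promoters of 11 other genes called lower, 1 held a CHR match and 6 a CCAAT box. Among all 35116 promoters of the table these shares were 14.3% and 32.0%, and 5.05% held both. The full palindrome of the estrogen response element, GGTCA and after 3 bases TGACC, was in 0 of the 314 promoters of named genes and in 0.0399% of all promoters. These are matches of letters in a fixed window and not evidence of binding. Other variants of the CHR were not searched. The lack of a match, as in NEK2 and CCNA2, therefore does not show that a CHR is absent. Incomplete forms of the estrogen response element were not searched either, and TFF1 and TFF3 had no promoter in the table. With a prediction program, the study reported estrogen response elements in promoters of genes from all of its sets. The 0 given here therefore does not show that the named genes lack such elements.

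Cyclins and regulators of cyclin-dependent kinases fell as well. Of 30 genes on this list, 7 had a named probe, with a median of -0.90. Of these 7, 6 were lower and 0 higher, where 0.636% of all probes and 11.5% of named genes were lower. The 6 became 0 without tumor 1 and 5 without tumor 2. CDC25B, which is also on the mitosis list and was counted there, is among the 6. CCNA2, cyclin A2, which acts in S phase and G2, had -0.92 in tumor 1 and -0.88 in tumor 2 (mean -0.90 ± 0.03, SD, n = 2, adjusted p = 0.00394). CDKN3, a phosphatase of cyclin-dependent kinases, had -0.84 and -1.02 (adjusted p = 0.00307), and 1 of its 2 probes was called. CKS2, a subunit that binds these kinases, had -0.60 and -1.09 (adjusted p = 0.0121). The CKS2 value of tumor 1 held an array at -0.20 and one at -0.998, and 1 of the 2 CKS2 probes was called.

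Both MYB-related factors on the list were lower. MYBL1 had -0.78 in tumor 1 and -1.06 in tumor 2 (mean -0.92 ± 0.20, SD, n = 2, adjusted p = 0.00394), and both of its probes were called. MYBL2, which activates late cell cycle genes, had -1.52 and -0.47 (mean -0.996 ± 0.75, SD, n = 2, adjusted p = 0.0365). Its low value in tumor 1 came from the dim dye-swap array, at -2.59 against -0.46 on the forward array, and the call was lost without that array. MYB, the founding member, was at -0.30 and not called.

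DNA replication genes did not pass the test at day 2 on their brightest probes. Of 48 listed genes, 12 had a named probe, of which 0 were called. The median of the 12 was -0.34, and 11 of 12 were below 0 in both tumors. Among all 253 named genes 11.5% were lower, so 0 calls in a list of 12 is not far from the share. Without the dim dye-swap array of tumor 1, 3 of the 12 were called lower. With the authors' own values, 1 was called lower. GMNN, the inhibitor of origin licensing, had -0.77 in tumor 1 and -0.45 in tumor 2 (mean -0.61, adjusted p = 0.0780). MCM6, a subunit of the replicative helicase, had -0.40 and -0.55 (adjusted p = 0.0861). TK1, thymidine kinase, had -0.45 and -0.43 (adjusted p = 0.125), and the helicase subunit MCM2 had a mean of -0.31. KIAA0101, now PCLAF, which binds the replication clamp PCNA, had a mean of -0.54 on its brightest probe, not called, and -0.77 on its other probe, which was called lower. GGH, the member above 0, had 0.28 on its brightest probe and -0.97 on its other probe, neither called.

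Genes known to be induced by estrogen were mostly below the pool. Of 44 listed genes, 26 had a named probe. Of these, 5 were lower, 0 were higher and 25 were below 0 in both tumors, with a median of -0.47. Of all probes 0.636% were lower, with a median of 0.01, and of all named genes 11.5% were lower. Below 0 in both tumors were 116 of the 253 named genes and 2723 of 9910 probes. Without tumor 1 the 5 became 1, and without tumor 2 they became 3. The list overlaps the named genes that the study chose on these arrays. The trefoil factors, small secreted proteins of mucous epithelia, led the calls. TFF1 had -0.86 in tumor 1, from its dye-swap array alone, and -2.002 in tumor 2, a mean of -1.43 ± 0.81 (SD, n = 2, adjusted p = 0.0152), and its call was lost without tumor 2. Its other probe was called as well, at -1.70. TFF3 had -1.04 and -1.58, a mean of -1.31 ± 0.39 (SD, n = 2, adjusted p = 0.00457), with -1.03 and -1.04 on the arrays of tumor 1 and -1.63 and -1.54 on those of tumor 2. The orientations were close together in TFF3, while the tumors differed.

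The other called members were closer between tumors. B4GALT1, a galactosyltransferase of the Golgi, had -0.69 in tumor 1 and -0.88 in tumor 2 (mean -0.79 ± 0.13, SD, n = 2, adjusted p = 0.00362), and all 3 of its probes were called. OLFM1, a secreted glycoprotein, had -0.98 and -0.82 (adjusted p = 0.00749), but only 1 of its 5 probes was called. MYBL1 is also on this list.

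Several estrogen-induced genes were well below the pool without passing the test. IGFBP4, which binds insulin-like growth factors, had -1.73 in tumor 1 and -1.77 in tumor 2 (adjusted p = 0.0964). SERPINA6, corticosteroid-binding globulin, had -1.46 and -1.94 (adjusted p = 0.05002, just above the threshold). EGR3, an early growth response factor, had -0.61 and -0.76 (adjusted p = 0.152), and AREG, an ErbB ligand, -0.20 and -0.71. PDZK1, a scaffold protein, had -0.88 and -0.87 (adjusted p = 0.224). The tumors were close in IGFBP4 and PDZK1, and the spread that the test used came from all days. IRS1, the adaptor of the insulin receptor, was at -0.01.

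Of the genes listed as repressed by estrogen, few passed the test. Of 18 with a named probe among 20 listed, 1 was higher and 0 were lower. Of all probes 0.141% were higher, and of all named genes 2.37%. The median of the 18 was 0.45, and 15 were above 0 in both tumors, as were 88 of the 253 named genes. The 1 call became 0 without tumor 1 and 2 without tumor 2. The called member was CLU, the secreted chaperone clusterin. Its 4 arrays read 0.70, 0.72, 0.75 and 0.77, which gave 0.71 in tumor 1 and 0.76 in tumor 2 (mean 0.73 ± 0.03, SD, n = 2, adjusted p = 0.00615). IER3, a stress-response gene, had 0.84 and 1.29 (adjusted p = 0.0584). The study found IER3 raised by estrogen in vitro and raised further by tamoxifen, so its place on this list is open to doubt. It is counted in the median and among the 15 above 0. IGFBP5, another binding protein of insulin-like growth factors, had 0.67 and 1.95, the highest mean of the named genes at 1.31 and not called (adjusted p = 0.216). BAMBI, a decoy receptor of TGF-beta signalling, had a mean of 0.65 and was not called.

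Luminal and differentiation genes gave mixed values. The defining markers ESR1, GATA3, KRT8 and KRT18 have no named probe, so the label of the line was not checked against them. Of 11 luminal epithelial genes with a named probe among 23 listed, 1 was higher, where 2.37% of named genes and 0.141% of all probes were. ANXA9, an annexin, had 1.20 in tumor 1 and 0.56 in tumor 2 (mean 0.88 ± 0.45, SD, n = 2, adjusted p = 0.0205), with both probes called. CLDN4, a tight junction protein, had a mean of 0.59, PRSS8, a membrane protease, 0.54, and DDR1, a collagen receptor, 0.38, and MUC1, a membrane mucin, -0.66, and none of these was called. The list of cilia and secretory differentiation had 10 named genes, where 11.5% of all named genes were lower and 2.37% higher. Among the 10, TFF1 and TFF3 were lower and 2 were higher. SELENBP1, a selenium-binding protein, had 0.57 and 0.82 (adjusted p = 0.0234), and UNG2 had 0.60 and 0.63 (adjusted p = 0.0252). RefSeq gives UNG2 as an older name of the uracil glycosylase UNG, while the Ensembl identifier listed beside it by the study is that of cyclin O, so which gene the probe measures is uncertain and no promoter was counted for it.

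Of 10 named genes of cholesterol and fatty acid metabolism, 2 were lower and 0 higher, with a median of -0.38. Of all named genes 11.5% were lower, and of all probes 0.636%. ELOVL5, an elongase of polyunsaturated fatty acids, had -0.67 in tumor 1 and -0.72 in tumor 2 (adjusted p = 0.00759), with both probes called. EBP, an isomerase of cholesterol synthesis, had -0.59 and -0.56 (adjusted p = 0.0152), while its other probe, at -0.61, was not called. FABP5, a fatty acid carrier, had a mean of -1.02 (adjusted p = 0.0678) and ME1, malic enzyme, -0.50 (0.0593). The tumors were close in the called pair.

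Signalling and stress lists had few or no calls. Of 5 named genes of insulin and IGF signalling, 7 of ErbB signalling, 10 of hypoxia and glycolysis and 7 immediate early genes, 0 were called. Among all 253 named genes 11.5% were lower and 2.37% higher, so 0 calls in any 1 of these short lists is near the share. IGF1R, the type 1 IGF receptor, was at -0.25. ERBB2, the receptor HER2, was at 0.49 in both tumors, but its forward arrays read 0.83 and 1.14 and its dye swaps 0.15 and -0.16, and GRB7, an adaptor coded beside it, was at 0.41. FGF18, a growth factor, was at 0.43. STC1, a secreted glycoprotein, had a mean of 0.98 (adjusted p = 0.182), PPP1R3C, a glycogen-targeting subunit of a phosphatase, -0.76 (0.0924), the lactate carrier SLC16A1 -0.38 and EGLN2, an oxygen sensor, -0.27. RHOB, a small GTPase, was at 0.31, PHLDA1 at 0.44 and BTG2, an antiproliferative gene, at 0.21. Of 9 named genes of apoptosis and stress, CLU alone was called, where 2.37% of all named genes were higher. IL24, a cytokine, was at -0.58 and PERP, a target of p53, at 0.35.

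Most transcripts typical of liver were below the pool in both tumors without passing the test. Of 6 named genes among 18 listed, 0 were called and 5 were below 0 in both tumors, with a median of -1.11. Among all 253 named genes 11.5% were lower, and 116 were below 0 in both tumors. With 6 genes, 0 calls is near that share. ALB, albumin, had the lowest mean of all probes, -2.77 in tumor 1 and -2.24 in tumor 2 (mean -2.50 ± 0.37, SD, n = 2, adjusted p = 0.152). SERPINA1, the protease inhibitor alpha-1 antitrypsin, had a mean of -1.18 (adjusted p = 0.112) and SERPINA4, kallistatin, -1.04 (0.0849). The tumors agreed in sign, while the tumors of other days varied widely, ALB from -3.98 to -0.32 within day 1.

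Markers of cell types other than the cancer cells were sparse among the named probes. Hemoglobin had 2 named entries for 13 listed genes. HBG1 read -0.61 in tumor 1 and -1.75 in tumor 2, and the brightest of 4 probes shared by HBZ, HBA1, HBA2 and HBQ1 read 0.06 and -1.60. The means of the 4 ran from -0.90 to -0.77. Tumor 2 was the lower in each probe, and none was called. Of fibroblast and matrix genes 4 of 20 were named, and 0 were called, where 11.5% of all named genes were lower. They were at -0.46 for LGALS1, -0.42 for MGP, -0.11 for FN1 and -0.04 for MYLK. The other FN1 probe was at -0.68 and not called. IGFBP7 was the only endothelial gene of 12 (0.07) and PMP22 the only gene of myelin of 6 (0.10, with -0.35 and 0.55 in the tumors). Macrophage and leukocyte genes (14 listed) and adipocyte genes (10) had 0 named probes. The part of mouse cells in any result was not tested, since cDNA probes were not checked against mouse transcripts here.

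Single genes of other marker lists were called. MB, myoglobin, was the only named gene of the skeletal muscle list and was higher, with 0.71 in tumor 1 and 0.86 in tumor 2 (mean 0.78 ± 0.11, SD, n = 2, adjusted p = 0.00394). LAMA3, a laminin chain of the basement membrane that keratinocytes and other epithelia make, was lower, with -1.30 and -0.78 (mean -1.04 ± 0.37, SD, n = 2, adjusted p = 0.00394). The integrin ITGB4 of the same list was at 0.33 and not called. The other markers on the muscle and keratinocyte lists have no named probe, and the part of such cells in both values was not tested.

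Membrane transporters (10 named) and genes of RNA processing and chromatin (15 named) had 0 calls, and so had the 3 mitochondrially encoded genes. Among all 253 named genes 11.5% were lower and 2.37% higher, so 0 calls in lists of this length is not far from the share. SLC30A1, a zinc exporter, had a mean of -0.67 (adjusted p = 0.0826), SLC1A1, a glutamate carrier, -0.66 (0.0880) and ATP8A1, a flippase, 0.64. MLL3, a histone methyltransferase, was at -0.86, CPSF5, a factor of 3′ end processing, at -0.55, THOC4, an mRNA export factor, at -0.40 and CHD3, a chromatin remodeler, at 0.40. MTND5, MTND1 and MTCYB, subunits of the respiratory chain, were at 0.30, 0.25 and 0.20.

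Of the 253 named genes, 94 were on none of the lists, and 7 of these were lower and 1 higher. Of all 253 named genes 11.5% were lower and 2.37% higher, against 0.636% and 0.141% of all probes. ATP5D, a subunit of the mitochondrial ATP synthase, had -1.04 in tumor 1 and -1.52 in tumor 2 (mean -1.28 ± 0.34, SD, n = 2, adjusted p = 0.00166). GNG4, a G protein subunit, had -1.34 and -1.13 (mean -1.24 ± 0.15, SD, n = 2, adjusted p = 0.00543). Their highest arrays were -0.93 and -0.88, so both genes were well below the pool on every array. RGS2, which shuts off G protein signalling, had -1.62 and -0.66 (adjusted p = 0.0362), but its dye-swap array of tumor 1 read -2.33 against -0.91, -0.77 and -0.55 on the others, and the call was lost without that array. CTSF, a lysosomal cysteine protease, was higher, with 0.54 and 0.68 (adjusted p = 0.0338), but its other probe was at 0.27 and not called. STOM, an integral membrane protein, and ADD3, an adducin of the membrane skeleton, were lower at -0.81 and -0.80, and RUNX1, a transcription factor, at -0.52. SVIL, which binds actin, was lower at -0.60 on its brightest probe, but its other probe was at 0.28.

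The study's 6 sets differed at day 2 in how far they lay from the pool. Of all 333 named probes 11.7% were lower and 2.10% higher, against 0.636% and 0.141% of all probes. Set 1 had 40 probes, of which 20 were lower and 0 higher, with a median of -0.71 in tumor 1 and -0.70 in tumor 2 and all 40 below 0 in both. On the single arrays its median was -0.72, -0.53, -0.84 and -0.61, so the offset was on each of them. In set 2, 8 of 25 probes were lower, with tumor medians of -0.64 and -0.61, and in set 5, 10 of 60, with -0.49 and -0.66. Sets 3 and 4 had medians of -0.15 and -0.32 and 1 and 0 called probes, and CELSR1, a cadherin of set 3 that the study names, was at -0.18. In set 6, 7 of 159 probes were higher, with medians of 0.27 and 0.41. Without tumor 1 the counts of sets 1, 2, 5 and 6 were 2, 0, 3 and 0, and without tumor 2 they were 14, 6, 10 and 7. Since the study formed the sets on these arrays, the counts give no independent evidence of direction.

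**Figure D3:**
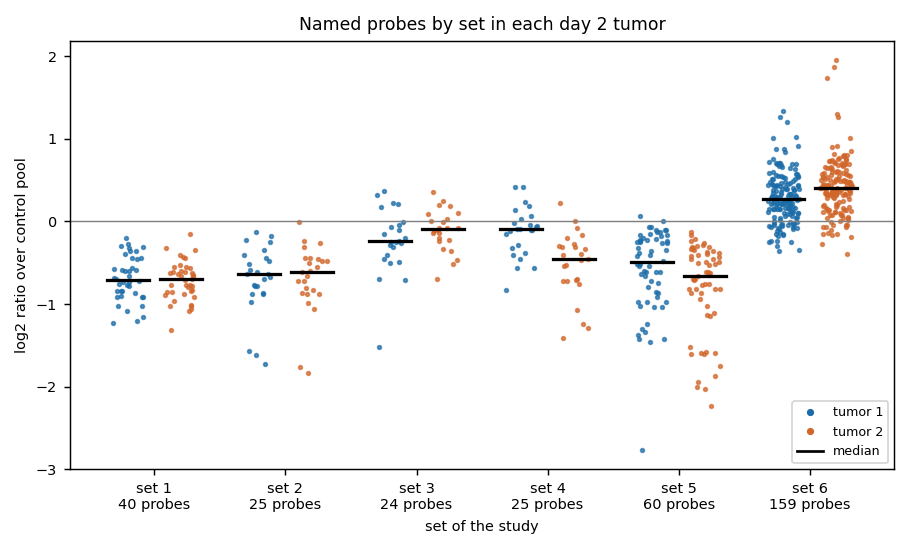
Log2 ratio over the control pool (vertical axis) of each named probe (points) in tumor 1 and tumor 2 of day 2, by set, with the median as a black bar. Every probe of set 1 lies below 0 in both tumors, and most probes of set 6 lie above it.

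Day 2 was then set against the other days, where the shared pool cancels. Limma called 0 of 9912 probes (0%) against the mean of days 1, 4, 7 and 14, 0 against day 1 and 0 against day 4, while the unadjusted p was under 0.05 for 700, 752 and 689 probes. Without tumor 2 the counts were 175, 120 and 56, and without background correction NEK2 alone was called in each. NEK2 and DLG7 had the smallest adjusted p against day 4, 0.0701 for each. NEK2 averaged -0.37 ± 0.12 (SD, n = 4 tumors of 2 mice) at day 1, -0.31 ± 0.07 (n = 4 of 3 mice) at day 4 and -0.76 at day 14. Both day 2 tumors were lower in NEK2 than every tumor of the other days. The NEK2 difference between day 2 and day 4 was -0.80 (95% interval -1.07 to -0.52). DLG7 had means of -0.31 on day 1, -0.07 on day 4 and -0.74 on day 14, with a difference of -0.96 (-1.30 to -0.62) from day 4, and 1 of its day 14 tumors, at -0.90, was lower than day 2 tumor 2. The intervals are per gene and not adjusted for the number of probes.

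Other cell cycle genes were further from the threshold. CCNA2 differed from day 4 by -0.73 (-1.09 to -0.36, adjusted p = 0.343) and from day 1 by -0.59 (-0.95 to -0.22), while its day 14 mean, -0.96, was close to that of day 2. AURKA differed from day 4 by -0.51 (-0.78 to -0.24, adjusted p = 0.406). Of the 40 probes of set 1, 17 had their lowest day mean at day 2, against 22.8% of all probes, and of the 18 mitosis genes 11 did. The study grouped set 1 by its course over these days. TFF3 had day means of -0.78 (day 1), -1.10 (day 4) and -1.94 (day 14) and a difference of -0.21 (-0.76 to 0.33) from day 4. CLU, at 0.33, 0.65 and 0.97 on those days, differed by 0.08 (-0.24 to 0.40) from day 4. The means of LAMA3 on days 1, 4, 7 and 14 were -0.11, -0.17, -0.52 and -0.41, and both day 2 tumors were lower than the tumors of every other day.

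**Figure D4:**
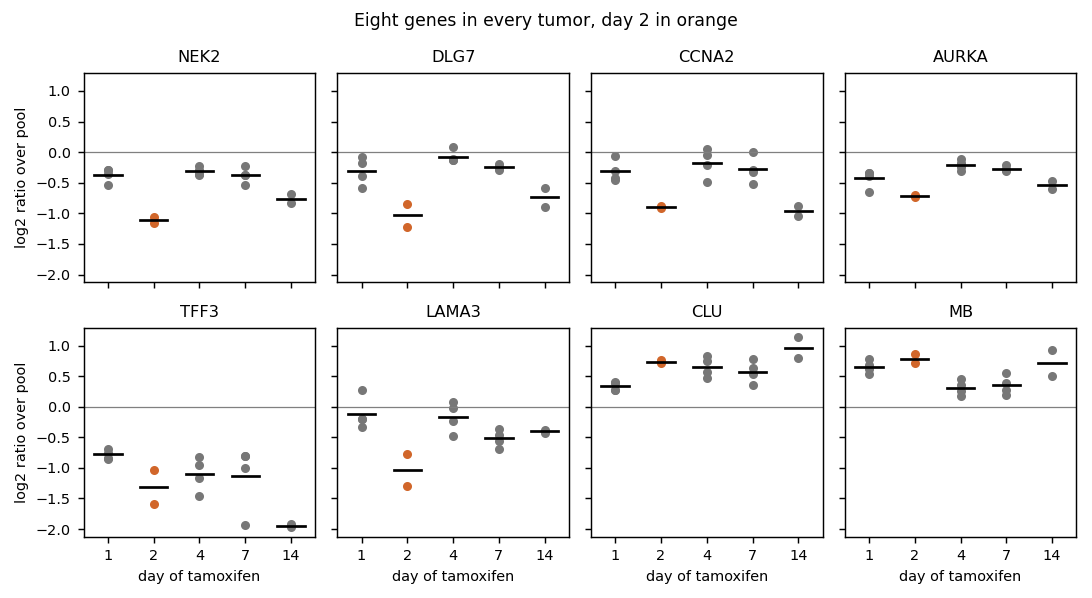
Log2 ratio over the control pool (vertical axis) in every tumor by day of tamoxifen (horizontal axis, days not to scale) for 8 genes, with day 2 in orange, other days in grey and the mean of each day as a black bar. NEK2, AURKA and LAMA3 have both day 2 tumors below every tumor of the other days, DLG7 has 1 of them within the range of day 14, and the means of TFF3 and CLU lie furthest from 0 at day 14.

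Among the 9579 probes without a name, 24 were lower and 7 higher, where 0.636% of all probes were lower and 0.141% higher. The 2 that fell the most with 1 sign on all arrays were 416833_A, with -1.22 in tumor 1 and -1.11 in tumor 2 (mean -1.16 ± 0.08, SD, n = 2, adjusted p = 4.10e-05), and 726391_A, with -1.55 and -0.68 (adjusted p = 0.0158). The call of 416833_A was lost in 1 of 32 other settings. The 2 that rose the most were 360264_A, with 1.18 and 0.39 (adjusted p = 0.0458), and 196320_A, with 1.03 and 0.36 (adjusted p = 0.0465). Both were higher in tumor 1 than in tumor 2 and lost their call in 19 and 20 of 32 other settings.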

How the data were processed

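RNA of xenograft tumors was measured on spotted cDNA arrays with 2 colours, each tumor against the control pool. Per the file headers, the deposited scanner files hold spot and local background intensity in 2 channels and a mark per spot. The authors' value table holds log2 ratios of the same arrays after the authors' background subtraction and normalization, 9928 probes with 665 missing values, and was used for direction and as an alternative. The study's limits of fold and p chose the 333 named probes on these arrays. The members and gene lists were chosen with earlier results of these data known.

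From the intensities, 1 to 393 spots per array, those with mark 0, were dropped, background was corrected with normexp (offset 50), and arrays were normalized by loess within and quantiles between. The sign was turned to tumor over pool, orientations were averaged per tumor, and limma 3.58.1 in R 4.3.3 fitted 1 mean per day over 16 tumors, with the mouse as a random block (statmod 1.5.0, correlation 0.0200) and empirical Bayes shrinkage (prior degrees of freedom 6.26). P-values were adjusted by Benjamini-Hochberg. The pool, 1 sample, adds no spread of its own. One array of another day, titled as the swap of day 4 replicate 4, was not used: its raw log ratios tracked those of replicate 2 in forward orientation (r of 0.980). Genes were named by rule: the 10 largest falls and rises among called genes with 1 sign on all 4 day 2 arrays, up to 4 members of each list with the smallest adjusted p, and genes the paper names. A gene that the rule names is not reported here. The remaining called genes and the list members MUC1 and NUMA1 were named after their values were seen. Leaving out the dim dye-swap array of day 2 replicate 1 was an alternative chosen after seeing the data. The steps were run on simulated arrays with known changes, as a check of the code. The simulation held no dye effect of single probes and no dim array, so it does not cover these. The numbers of tumors and arrays and the signal over background limit the precision.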

Additional observations from a re-analysis of the deposited data

How the results depend on the processing

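Against the pool, the count of 77 called probes was 132 with plain background subtraction, 245 with the forward arrays alone, 228 under the methods' rule of 1.5-fold and an unadjusted p of at most 0.05, 0 with only the day 2 arrays and 169 without the dye-swap array of day 2 replicate 1. The replicate numbers did not pair the tumors, since the deviations of same-numbered tumors correlated between -0.174 and 0.182, and with the replicate number as a block 15 probes were called, 14 of them among the 77. Leaving out 1 tumor gave 6 (without day 2 replicate 1) to 327 (without day 2 replicate 2). The other 10 settings gave 54 to 115, including 58 with the authors' value table, 46 of them shared. All called probes that were tested kept their sign in every setting except the dye-swap arrays alone, where 76 of 77 did.

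Between days, the counts of 0 became 1 in each of the 3 comparisons without background correction, NEK2 each time. Against day 4 they became 2 with dim probes left out (NEK2 and DLG7), 1 with the forward arrays alone and 1 without the dim dye-swap array (NEK2 both times). Against day 1 they became 1 with the authors' value table (the unnamed probe 183002_A) and 4 with the forward arrays alone (NEK2 and the unnamed probes 115097_A, 171585_A and 415870_A). The methods' rule gave 94 against the mean of the other days, 205 against day 1 and 165 against day 4. Leaving out 1 tumor gave 0 to 175, 0 to 120 and 0 to 56, each highest without day 2 replicate 2. With only the day 2 arrays these comparisons could not be made.

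Among the genes named in the report, those whose sign turned were not called. IRS1 at day 2 became 0.038 without background correction, 0.000515 with the replicate block, 0.027 with the authors' value table, 0.19 with the forward arrays alone and 0.0098 without the dim dye-swap array. CELSR1 at day 2 became 0.0070 without normalization between arrays, 0.049 with the authors' value table, 0.27 with the forward arrays alone and 0.11 without the dim dye-swap array. The forward arrays alone gave -0.067 for MTND1, -0.15 for MTND5 and -0.20 for PMP22. The dye-swap arrays alone gave -0.37 for BTG2, -0.13 for CHD3, -0.0056 for ERBB2, -0.13 for IGFBP7 and 0.050 for MYLK. PMP22 was -0.11 without the dim dye-swap array. Leaving out 1 tumor, the day 2 tumors giving both ends, moved IRS1 from -0.025 to 0.0070, CELSR1 from -0.71 to 0.35, FN1 from -0.25 to 0.031, MYLK from -0.16 to 0.078, the brightest probe of HBZ, HBA1, HBA2 and HBQ1 from -1.60 to 0.062 and PMP22 from -0.35 to 0.55. The cause of these changes was not tested. The lowest signal over background, 2.29, was on a day 2 array, and 2 tumors against 1 pool limit every value.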
